A study of Drosophila melanogaster with 14 samples.

Results

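The regions described here are 55 bins of 10 kb, out of 9408 on the euchromatic parts of chromosome arms X, 2L, 3L and 3R of Drosophila melanogaster. Each replicated early in S phase in all 4 biological replicates of a study of 2 kinds of testis tumour. They were chosen by their ratio of early to late signal: a bin was kept where the standardized log2(E/L), explained below, was 0.8 or more in every replicate. They make up 0.585% of the bins, or 550 kb. By contrast, 916 bins (9.74%) stood at or below the mirrored late threshold in all 4 replicates, 16.7 late bins for each early one. That ratio depends on the kind of cut, since the mirrored thresholds did not take equal shares of bins. In single replicates 9.09% to 22.1% of bins reached the early threshold and 21.8% to 27.7% the late one. With cuts by rank within each replicate instead, 123 bins were early and 680 late in all 4.

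Eukaryotic chromosomes are copied in a set order, from origins that start at different times of S phase. In Drosophila, gene-rich and transcribed euchromatin tends to be copied early, and repeat-rich pericentromeric heterochromatin and silent, Polycomb-bound regions late. Repli-seq reads this order by letting cells take up a labelled nucleotide, sorting them by DNA content and sequencing the labelled DNA of each part of S phase.

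Tumours were driven by forced expression of Unpaired (Upd), the ligand of the JAK-STAT pathway that keeps stem cells of the testis niche dividing. The labels call the sorted nuclei GSC-like (germline stem cell) or CySC-like (somatic cyst stem cell). GSC-like tumours came from y[1] w[1118] P{hs70FLP} flies with the germline driver P{w[+mC]=GAL4::VP16-nanos.UTR}. CySC-like tumours came from w[1118] flies with the driver traffic Jam-GAL4, active in the somatic cyst lineage. In both, the driver stood over UAS-Upd and the reporter UAS-FRT-H3-GFP-FRT-H3-mKO over +. Forced Upd and the tagged histone H3 were thus common to both groups, and a group without forced Upd was not analysed here. Testes of 100 to 200 pairs were pooled for a preparation and exposed to 100 mM BrdU for 15 minutes, and fluorescent nuclei were divided by their DNA content into 4 S-phase fractions, from E (early) through EM and ML (the earlier and later middle) to L (late). The libraries hold DNA, so the cell types named in the labels could not be checked against marker genes.

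Each cell type had 2 biological replicates and 14 libraries were analysed, with E and L in every replicate, and EM and ML in all but CySC-like replicate 1. GSC-like replicate 2 stood apart: its libraries held 0.516 to 7.05 M reads and were the only paired-end ones, against 49.1 to 144 M in the rest. In CySC-like replicate 2 the order of the middle fractions went against their labels. Over the 9408 bins, E correlated more closely with the library labelled ML (Spearman 0.78) than with the one labelled EM (0.40). In both GSC-like replicates E was closer to EM (0.43 and 0.35) than to ML (0.10 and -0.51). These correlations describe libraries that share base composition and the lower level of X. Values from that pair are given as the libraries labelled EM and ML, and the choice of bins did not use them.

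The name early domains holds only in part. The 55 bins formed 52 separate stretches, of which 49 were a lone 10 kb bin and 3 were pairs of adjacent bins, all 3 on X. The shared late bins joined into 236 stretches of up to 200 kb. The early bins are therefore called shared early bins here, and what they are embedded in is described below.

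Sequence matches close to gene starts are shown first, as examples of what lies in the bins named below. Each line gives 30 bases of the dm6 reference on the plus strand, with a match to a short core-promoter word in capitals, found within 250 bases of a protein-coding start in a named bin. The words were TATCGATA, the DNA replication-related element (DRE) that binds the factor Dref, then GGTCACAC, the core of motif 1, and the repeat GAGAGAGA, which can bind the GAGA factor.
p24-1, X:11852458-11852487: ttgtgatatgcTATCGATAtcgccagcatt
Prtl99C, 3R:29835947-29835976: gtcagctggtgGGTCACACtttccaaggcg
CrebA, 3L:15535242-15535271: ttataagcgcaGAGAGAGAgagacaaagag

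The first match lay 61 bases from the start of p24-1, a gene of the p24 family of vesicle cargo proteins. The second lay 8 bases from the start of Prtl99C, a protamine-like protein of sperm chromatin, and the third 142 bases from that of CrebA, a bZIP factor that drives genes of the secretory pathway. Counted anywhere in a bin on either strand, the DRE word was present in 18 shared early bins (32.7%), against 20.8% of all bins and 15.9% of shared late bins. Motif 1 was present in 16.4%, against 19.6% of all bins and 11.2% of late bins. GAGA repeats were in 41.8% and 41.6%, and the TATA word TATAAA in 100% and 99.9%. A match is a run of letters in the reference and not evidence of binding. Members and bins differ in coding content, as given below, and its part in the DRE difference was not tested.

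Timing is given as log2(E/L), which divides the E signal of a replicate by its L signal, so that higher values mean earlier. Each library was scaled to a mean of 6 over the arm bins and 0.1 was added before the ratio was taken. The median of each replicate was then subtracted and the result divided by the SD over bins, which gives standardized values in SD units. The SD of log2(E/L) over the 9408 bins was 0.71 and 1.26 in GSC-like replicates 1 and 2, and 1.10 and 0.68 in CySC-like replicates 1 and 2. The same threshold of 0.8 thus stood for E over L of 1.48, 2.02, 1.84 and 1.46 times the replicate's median in that order.

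Among the shared early bins, the standardized value ran from 0.81 to 2.38 in GSC-like replicate 1, with a median of 1.26. It ran from 0.81 to 1.45 in GSC-like replicate 2 (median 1.00). In the CySC-like replicates it ran from 0.80 to 1.89 (median 1.07) and from 0.81 to 1.47 (median 1.01). Only 6 bins reached 1 in all 4 replicates, and 4 bins reached 2 in any replicate. Over all arm bins the highest value was 3.84 and 2.35 in GSC-like replicates 1 and 2. In CySC-like replicates 1 and 2 it was 1.89 and 1.85, so no bin reached 2 there. GSC-like replicate 1 gave the highest of the 4 values in 29 bins, and CySC-like replicate 2 the lowest in 18. These values chose the bins and are a description.

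**Figure D1:**
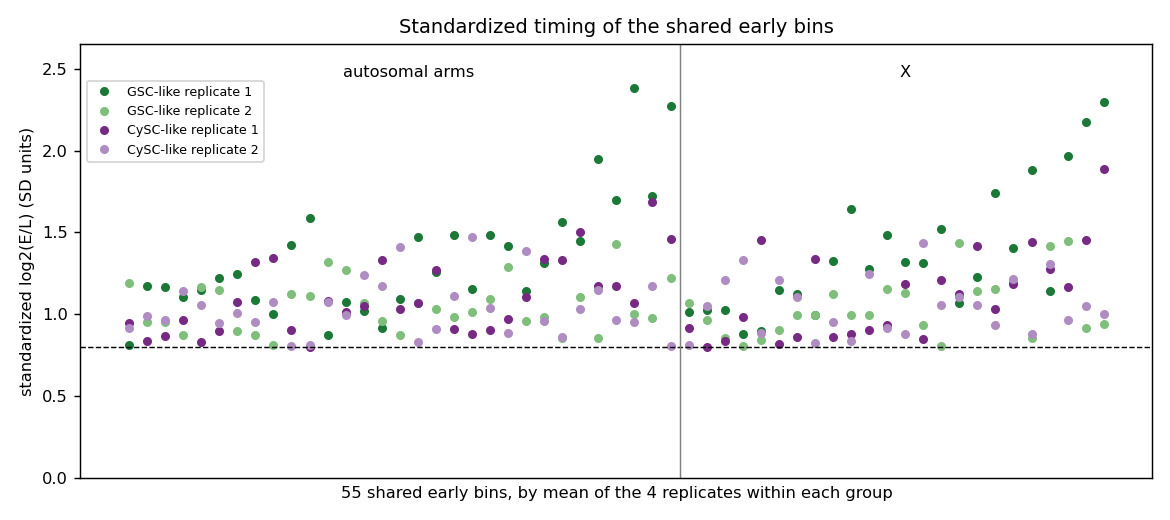
Standardized log2(E/L), in SD units, of the 55 shared early bins in each of the 4 replicates, 31 on autosomal arms to the left and 24 on X to the right, ordered by their mean. The dashed line is the threshold of 0.8 that chose them, and the highest values, up to 2.38, were those of GSC-like replicate 1.

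The threshold cut through a continuous range. The lowest of the 4 values lay from 0.8 to below 0.85 in 18 kept bins, and from 0.75 to below 0.8 in 34 bins that were not kept. Just inside was the bin 3R:5730001-5740000, with values of 1.59, 1.12, 0.80 and 0.81 in the order used above. Just outside was X:2180001-2190000, with 1.23, 0.80 (0.7994 unrounded), 1.79 and 0.90. Over all bins, 403 reached the threshold in 3 replicates, 1186 in 2, 2415 in 1 and 5349 in none.

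Counting error was largest in GSC-like replicate 2. Its median shared early bin held 514 reads in E and 50 in L, which gave a counting error of 0.168 SD units. In that replicate 41 of the 55 bins lay within a 95% counting interval of the threshold. The other replicates held medians of 2589 to 12529 reads per bin in E and L, with counting errors of 0.022 to 0.045 SD units. Counting errors cover reads only, and without molecular identifiers several reads can come from one molecule.

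Whether early bins recur was read in replicates that took no part in choosing them. For this, bins at or above 0.8 in 3 replicates were taken and looked up in the fourth. Of 116 bins chosen without GSC-like replicate 1, 47.4% reached 0.8 in it (95% exact Clopper-Pearson interval 38.1% to 56.9%), where 19% of all bins did. Of 113 chosen without GSC-like replicate 2, 48.7% did (39.2% to 58.3%), against 22.1% of all bins. The share was 33.5% of 164 (26.4% to 41.3%) for CySC-like replicate 1, against 15.9%. It was 23.9% of 230 (18.6% to 30.0%) for CySC-like replicate 2, against 9.09%. Early bins thus recurred in each held-out replicate at 2.11 to 2.63 times the share of all bins, and in each most of the chosen bins missed the threshold. Nearly all stayed on the early side: 87.1%, 98.2%, 90.9% and 87.8% of them lay above the held-out replicate's median in the same order. The intervals cover counting of bins only, and adjacent bins are not independent.

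Across cell types, 621 bins reached 0.8 in both GSC-like replicates, and 8.86% of them (6.74% to 11.4%) did so in both CySC-like replicates, against 2.49% of all bins. In the other direction, 234 bins reached it in both CySC-like replicates, and 23.5% of them (18.2% to 29.5%) did so in both GSC-like replicates, against 6.6%. Both shares rest on the same 55 bins and are 3.56 times those of all bins, a single ratio that is equal in both directions by arithmetic. X as a whole stood higher than the autosomal arms in 3 of the 4 replicates, as given below, so the held-out shares were also read within arms. On the autosomal arms they were 50.0%, 48.4%, 25.0% and 23.1%, against 18.5%, 20.3%, 12.9% and 7.81% of autosomal bins. On X they were 44.4%, 49.0%, 60.0% and 25.0%, against 20.5%, 27.9%, 25.9% and 13.3% of X bins.

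**Figure D2:**
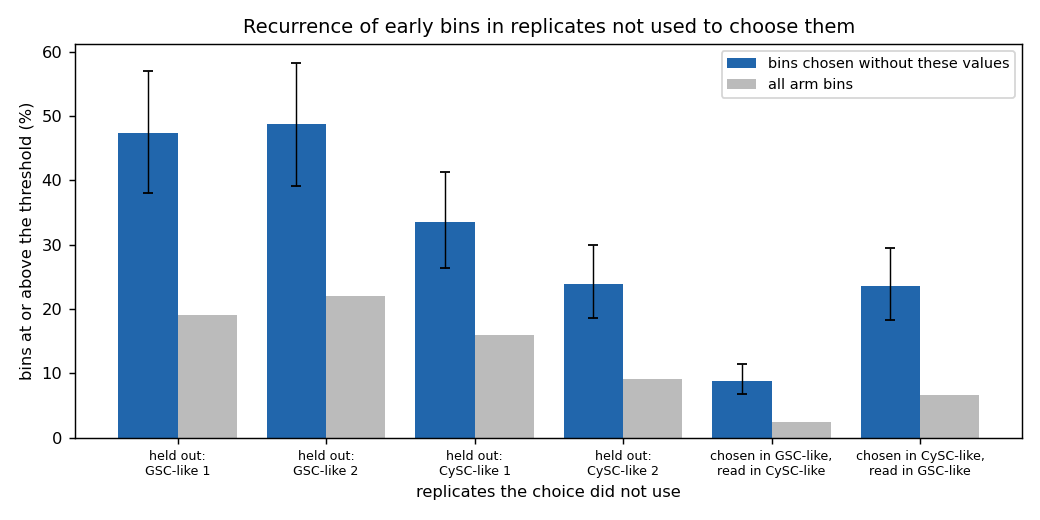
Share of bins (%) at or above the threshold of 0.8 in replicates that did not choose them (blue, with 95% exact binomial intervals) beside the share of all 9408 arm bins (grey). The blue bars run from 8.86% to 48.7% and each stands above its grey bar, which runs from 2.49% to 22.1%. The bins that reach the threshold are the same 55 in every blue bar.

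Which chromosome the shared early bins lay on depended on the processing. X held 24 of the 55 bins (43.6%) with 23.4% of all bins, and 1.09% of its bins were shared early bins against 0.430% of autosomal ones. The arms 3R, 3L and 2L held 13, 10 and 8. X as a whole was shifted: the median standardized value of all X bins was -0.01, 0.33, 0.37 and 0.16 in GSC-like replicates 1 and 2 and CySC-like replicates 1 and 2. With each arm centred on its own median, an alternative chosen after seeing the data, 88 bins were kept and only 4 of them (4.55%) lay on X. With 1 added before log2 in place of 0.1, X held 24.6% of 61 bins, and without CySC-like replicate 1 it held 24.4% of 164. It held 30.0% of 30 bins of 20 kb, and 66.7% of the 6 bins at a threshold of 1. Shared late bins were 4.27% of X bins and 11.4% of autosomal bins.

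The X shift differed between libraries. Relative to autosomal bins, the median X bin had 0.569 and 0.563 of their signal in E and L of GSC-like replicate 1, and 0.842 and 0.555 in those of GSC-like replicate 2. It had 0.651 and 0.430 in E and L of CySC-like replicate 1, and 0.557 and 0.476 in those of CySC-like replicate 2. Testis nuclei carry 1 X, and its lower level was present in every library. The 24 X bins and 31 autosomal bins had much the same standardized values. Their medians were 1.30 and 1.25 in GSC-like replicate 1, and 1.05 and 0.99 in CySC-like replicate 2. The same threshold chose both groups, so nothing is read from this likeness.

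Named stretches on X were read bin by bin. Signal is given on the scaled RPKM (reads per kb per M reads), on which the mean arm bin is 6. A rule for length, then for the lowest of the 4 values, named 5 stretches, all on X, and these are not the 5 earliest.

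X:12790001-12810000 spans 2 bins inside Pde9, a gene of 111.8 kb for a cyclic nucleotide phosphodiesterase, and the second bin also holds Nep6, a neprilysin-family metallopeptidase. In its first bin, E and L were 4.55 and 2.51 in GSC-like replicate 1, and 13.4 and 3.68 in GSC-like replicate 2. In CySC-like replicates 1 and 2 they were 6.37 and 2.09, and 3.71 and 1.69. Signal in GSC-like replicate 2 was high in both libraries there, while the standardized values of 1.14, 1.42, 1.28 and 1.31 lay close together. The second bin had 0.90, 0.85, 1.46 and 0.89, so CySC-like replicate 1 was the highest.

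X:11850001-11870000 holds p24-1, with the DRE match shown above, ATP7, a copper-transporting ATPase, and Nrd1, a nardilysin-type metalloprotease. Its first bin had E and L of 4.20 and 2.12 in the first GSC-like replicate and 5.87 and 2.05 in the other. They were 5.44 and 1.91, and 4.06 and 2.29, in CySC-like replicates 1 and 2. E stood above L in each, and standardized values were 1.32, 1.13, 1.19 and 0.88. The second bin had 1.01, 1.07, 0.92 and 0.82.

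X:11410001-11430000 holds chemoreceptor genes in its first bin, the odorant receptor Or10a and the gustatory receptors Gr10a and Gr10b, and glutamine synthetase 2 (Gs2) in the next. The first bin had values of 1.52, 0.81, 1.21 and 1.06, and the second 1.03, 0.97, 0.80 and 1.05. Both bins were close to the threshold in 1 replicate, the first in GSC-like replicate 2 and the second in CySC-like replicate 1.

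X:6790001-6800000 lies inside C3G, a guanine nucleotide exchange factor of the GTPase Rap1. Its lowest value, 1.19, was the highest such minimum of all 55 bins. E and L there were 5.21 and 2.52, 5.78 and 1.90, 6.08 and 2.15, and 4.75 and 2.27 in GSC-like replicates 1 and 2 and CySC-like replicates 1 and 2. The 4 standardized values of 1.41, 1.20, 1.19 and 1.22 differed by less than in any other bin described here. X:7990001-8000000 holds the start of Tbh, tyramine beta-hydroxylase, which makes octopamine, and had values of 1.07, 1.44, 1.13 and 1.11.

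No pair of adjacent bins lay on an autosomal arm. The autosomal bin with the highest minimum on each arm was added after the values had been seen. On 3R it was 3R:29830001-29840000, with Prtl99C and the autophagy gene Atg16. E and L were 11.7 and 5.58 in the first GSC-like replicate and 8.15 and 2.93 in the other. They were 14.0 and 3.94, and 8.90 and 4.69, in CySC-like replicates 1 and 2. The standardized values there were 1.45, 1.11, 1.50 and 1.04.

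On 2L it was 2L:17430001-17440000, which holds the start of Dif and part of dl, both NF-kappaB factors of the Toll pathway. Its values were 1.07, 1.27, 1.02 and 0.99. On 3L it was 3L:15530001-15540000, with the start of CrebA, at 1.48, 0.99, 0.91 and 1.11. Within each replicate all 3 autosomal bins had higher scaled signal in E than the X stretches above, apart from E of GSC-like replicate 2 in the first bin of X:12790001-12810000.

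Around the shared early bins, the mean declined over the nearest 40 kb on both sides. The mean standardized value over bins and replicates was 1.14 in the bins themselves, 0.86 and 0.84 in the bins 10 kb to either side, 0.74 and 0.78 at 20 kb and 0.42 and 0.50 at 40 kb. On the side of rising coordinates it was 0.34 at 80 kb, higher again at 100 kb with 0.42, and -0.01 at 200 kb. On the other side it was 0.27 at 80 kb and -0.05 at 200 kb. The windows behind adjacent bins overlap by up to 2 kb, so only bins from 20 kb outward share no reads with them. Each replicate had its highest mean at distance 0, which the choice of bins fixes.

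Of the 55 bins, 42 had neighbours on both sides that lay above the median in all 4 replicates, and 12 had 1 such neighbour. Of all bins taken singly, 22.1% lay above it in all 4, and the share of all bins with both neighbours above it was not counted. The stretches of bins with a mean above 0 that held the shared early bins had a median length of 180 kb, from 70 to 370 kb, where bins above 0 in general lay in stretches with a median of 160 kb. Shared early bins lay in stretches of at least 100 kb in 50 of 55 cases (90.9%), against 72.4% of all bins above 0. The isolated 10 kb bins thus lay in longer stretches of bins with a mean above 0. Those stretches include the kept bins and rest on the values that chose them, so this is a description. Between neighbouring kept stretches on an arm the median gap was 995 kb. Within 1 Mb of the outer end of an arm lay 8 of the 55 bins (14.5%), against 4.26% of all bins. Within 2 Mb lay the same 8, against 8.51% of all bins.

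**Figure D3:**
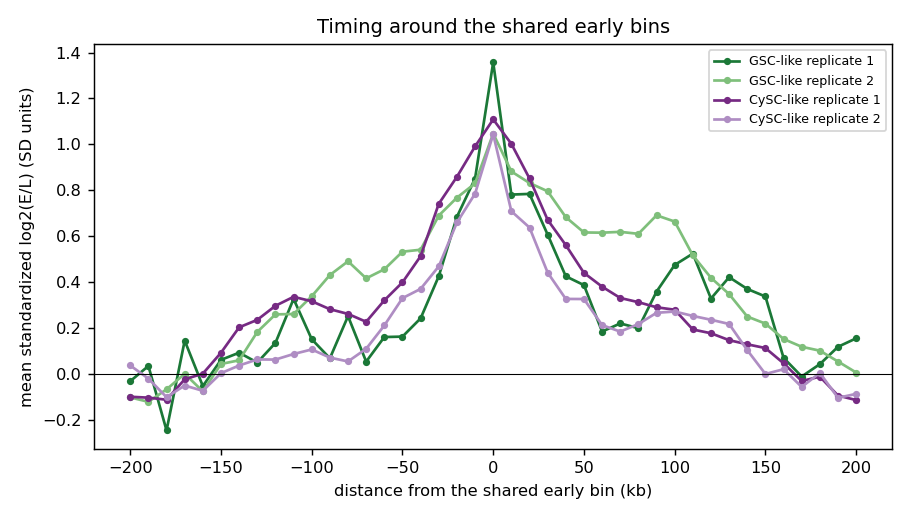
Mean standardized log2(E/L), in SD units, of bins up to 200 kb on either side of the 55 shared early bins, for each replicate. All 4 lines peak at distance 0, where the choice placed them, and the mean over replicates is 0.86 and 0.84 at 10 kb and near 0 at 200 kb.

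The single fractions show where the ratio came from. Relative to the median bin of its own arm, the median shared early bin had 1.46, 1.64, 1.56 and 1.28 times the signal in E of GSC-like replicates 1 and 2 and CySC-like replicates 1 and 2. In L it had 0.743, 0.795, 0.698 and 0.794. Both terms of the ratio contributed in each replicate, and E exceeded the arm median in 52, 53, 54 and 53 of the 55 bins. E and L chose the bins, so this is a description.

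EM and ML were not used by the choice. In EM the median shared early bin had 0.758 and 1.01 times its arm's median in GSC-like replicates 1 and 2, and in ML 0.773 and 0.538. In CySC-like replicate 2 it had 0.890 in the library labelled EM and 1.04 in the one labelled ML. Signal in the library labelled ML of GSC-like replicate 2 rested on a median of 9 reads per bin. Of the replicates with 4 fractions, E was the highest fraction in 55 bins of GSC-like replicate 1, 53 of GSC-like replicate 2 and 46 of CySC-like replicate 2. Over all bins E was highest in 35.3%, 35.6% and 26.9%. The choice required high E relative to L, so this count is a description and nothing is read from the difference. The other 9 bins of CySC-like replicate 2 were highest in the library labelled ML.

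**Figure D4:**
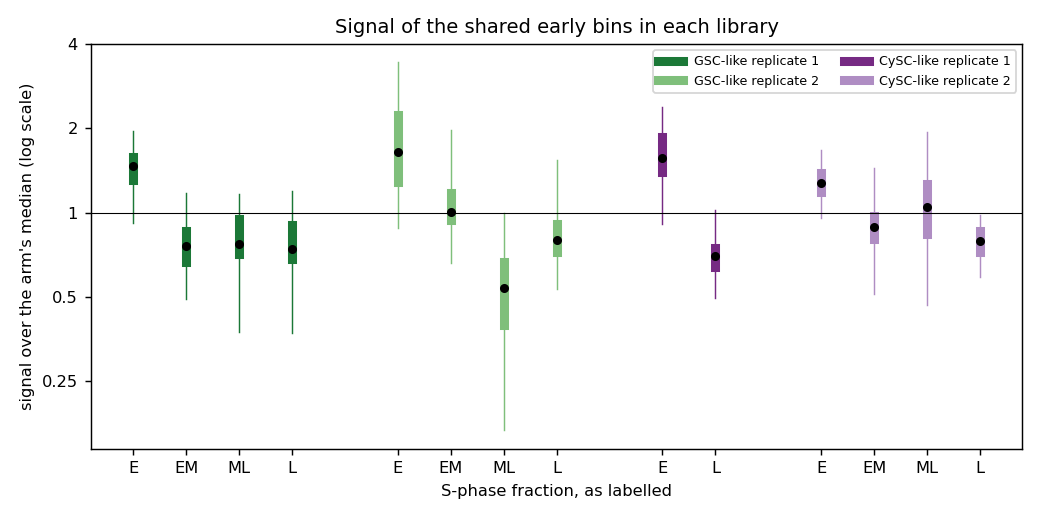
Signal of the 55 shared early bins in each of the 14 libraries relative to the median bin of the same arm, on a log scale, with the median (dot), the middle 50% of bins (thick line) and the range (thin line). Medians in E lie between 1.28 and 1.64 and those in L between 0.698 and 0.795.

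To ask whether the shared early bins also lean to the earlier of the middle fractions, log2(EM/ML) was centred in each GSC-like replicate on its median over all arm bins. The median shared early bin was at -0.08 in replicate 1, where 24 of 55 bins lay above 0, and at 0.80 in replicate 2, where all 55 did. The replicates thus differed, and the higher values came from the shallow replicate. The share above 0 in replicate 1 was 43.6%, against 50% of all bins, so that replicate alone showed no lean to EM. In CySC-like replicate 2 the ratio of the libraries labelled EM and ML had a median of -0.22, with 19 bins above 0.

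With limma over all 9408 bins and both GSC-like replicates, none of the 55 was called higher in EM, where 0.0319% of all bins were, and none higher in ML, where 0.861% were (Benjamini-Hochberg adjusted p under 0.05). The median difference was 0.40 on the log2 scale, against 0.03 over all bins, and the median moderated SE was 0.54. This SE draws on the spread of all bins and not only on the 2 values of a bin. At an unadjusted p under 0.05, 3 shared early bins (5.45%) were higher in EM and none in ML, against 1.01% and 7.43% of all bins. The closest to a call was the first bin of X:12790001-12810000, inside Pde9. It had 1.48 ± 0.56 (moderated SE, n = 2 replicates) and a limma adjusted p of 0.205. Its values were -0.08 and 3.04, so they did not move together, and the library labelled ML of replicate 2 had a scaled signal of only 0.552 there. The bin with Prtl99C and Atg16 had 0.53 and 1.67, a difference of 1.10 ± 0.52 and a limma adjusted p of 0.487.

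With voom on the recovered reads, which weights values by a trend of spread on read count, 33 of the 55 bins were higher in EM. None was higher in ML. Voom called 27.6% of all bins higher in EM and 32.7% higher in ML. It rests on the same 2 replicates, and its median difference over the 55 bins was 0.70. That lies nearer to the median of the shallow replicate 2 (0.80) than to that of the deeper replicate 1 (-0.08).

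GSC-like and CySC-like standardized log2(E/L) were then set against each other over all bins with limma, 2 replicates against 2. Since a bin had to be early in all 4 replicates to be kept, the choice itself limited any difference among them. None of the 55 was called, in either direction, by limma or by voom, and at an unadjusted p under 0.05 none was either. Limma called 0% of all 9408 bins earlier in GSC-like and 0% later, with 845 and 454 at an unadjusted p under 0.05. The median difference, GSC-like minus CySC-like, was 0.10 over the shared early bins and 0.10 over all bins. In 14 of the 55 bins (25.5%) the lower GSC-like value exceeded the higher CySC-like value, against 26.3% of all bins. The opposite held for 3 of the 55 (5.45%), against 19% of all bins. These standardized values are the ones that chose the bins, and nothing is read from their difference.

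Over all bins the replicates correlated at Pearson r from 0.371, for GSC-like replicate 1 with CySC-like replicate 1, to 0.719, for CySC-like replicates 1 and 2. Within the 55 bins r ran from -0.29 to 0.38. The choice at 0.8 in each of these replicates narrows the range there, so nothing is read from those values. These are correlations across bins, which share arms and neighbours and are not replicates.

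The annotation was not used by the choice. Shared early bins were richer in coding sequence: the median was 21.5% coding bases, against 10.8% in all bins and 1.81% in shared late bins. Exons of any kind covered a median of 34.8%, against 21.3% and 8.63%. They held a mean of 1.64 starts of protein-coding genes, against 1.15 and 0.536, and 13 of them (23.6%) held none, against 47.1% and 65.2%. The range was wide, from 0% to 80.8% coding. At a threshold of 1, which kept 6 bins, the median was 11.6% coding and the mean 0.833 starts, so the starts fell below those of all bins. Without CySC-like replicate 2 the median over 230 bins was 36.1% coding.

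Median GC content was 42.5% in the shared early bins, 42.2% in all bins and 41.8% in shared late bins. On X it was 43.5% against 42.0% in all X bins, and on the autosomal arms 42.2% against 42.3%. GC content can change how well DNA is amplified and sequenced, so the bins were also chosen after a fit for it. The fit was made on the log2(E/L) of each replicate and not on single libraries, so it also takes out timing that follows GC. With it, 88 bins were kept, 40 of the 55 among them, with a median of 15.4% coding bases.

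Annotated transposable elements were scarce. They covered a mean of 0.407% of the shared early bins, against 3.93% of all bins and 2.60% of shared late bins. None of the 55 had 10% or more, against 9.16% of all bins and 7.10% of late bins. The 24 bins on X had none at all. Among the 6 bins with any, the highest cover was 6.21%, at 3L:60001-70000, close to the outer end of its arm. The mean cover was higher under other settings, at 1.81% with 0.01 added before log2, 1.72% with thinned reads, 1.52% with each arm centred and 1.11% without GSC-like replicate 1. How reads with several matches were placed is not given in the sources used here.

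**Figure D5:**
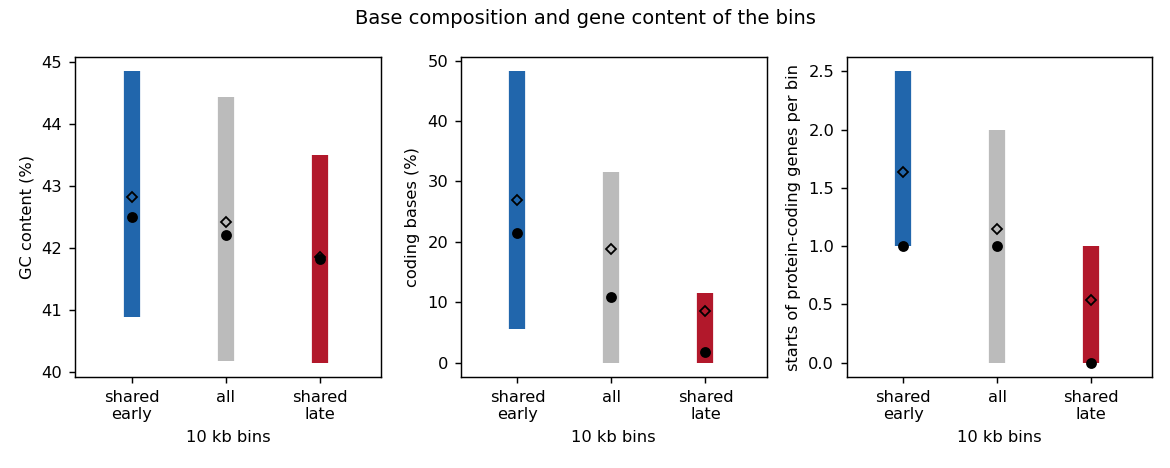
GC content (%), coding bases (%) and starts of protein-coding genes per 10 kb bin in shared early, all and shared late bins, with the median (filled dot), the mean (open diamond) and the middle 50% of bins (bar). Median coding cover is 21.5%, 10.8% and 1.81% from left to right, while median GC content differs by less than 1 percentage point.

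The bins overlapped 142 annotated genes, 127 of them protein-coding, and 90 protein-coding genes had their start inside one. That is 0.835% of the 10779 protein-coding genes with a start on these arms. The median length of these genes was 2.43 kb, against 2.16 kb for all. Long genes were present too: 11 protein-coding genes of 30 kb or more overlapped a bin, and 11 bins lay wholly inside a protein-coding gene. No annotated gene lay in 2 bins. Long genes, bins wholly inside a gene and bins without a gene were not counted over all arm bins. Those counts are therefore a description, and no difference from other bins is read from them.

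Gene lists were read by the bin that holds each gene's start. Of 13 replication licensing and helicase genes on the arms, such as the Mcm subunits that unwind DNA, none started in a shared early bin, and their median value was 0.18. None of 12 cell cycle regulators (median 0.28), 10 JAK-STAT genes (0.17), 5 germline genes (-0.02) or 5 cyst lineage genes (0.33) did. None of 6 dosage compensation genes (0.30), 7 spermatocyte arrest genes (0.33) or 49 Cpr cuticle proteins (0.22) did either. Over all protein-coding genes the median was 0.32, so these lists lay near or below it.

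Cytoplasmic ribosomal protein genes had a median of 0.48 over 66 genes and proteasome subunits 0.51 over 35, and none started in a shared early bin, where 0.835% of all protein-coding genes did. The 8 Hox genes, which are Polycomb targets that set segment identity, had a median of -1.17 and none was in the bins. Odorant receptors had 1 of 43 (median -0.53) and gustatory receptors 2 of 47 (median -0.08), the 3 genes at X:11410001-11430000. Among 192 tRNA genes (median 0.34), 2 lay in a single 3R bin. A gene's value is its bin's mean over the 4 replicates, in SD units.

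Several other genes in the bins have roles in development, and these were chosen after the values had been seen. The bin with part of dac, a transcription cofactor of eye and leg development, had values of 1.57, 0.85, 1.33 and 0.86 in GSC-like replicates 1 and 2 and CySC-like replicates 1 and 2. The bin with part of slou, a homeobox factor of muscle identity, had 1.00, 0.81, 1.35 and 1.08. A bin wholly within an intron of ct, a homeobox factor gene of 70.4 kb, had 2.30, 0.94, 1.89 and 1.00, the highest mean of all 55. The starts of vnd, a homeobox factor of the nerve cord, and peb, a zinc finger factor, lay in bins with 1.03, 0.86, 0.84 and 1.21, and with 1.64, 1.00, 0.88 and 0.84. These bins held little coding sequence, from 0% in the ct bin to 14.6% in the dac bin.

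Some other bins on X were dense with short genes. The X bin with Cfp1, which guides the histone methyltransferase Set1, and the nuclear pore gene Aladin had 68.9% coding bases and values of 1.74, 1.15, 1.03 and 0.93. That with Bap60, a subunit of the Brahma remodelling complex, had 61.1% and values of 1.28, 1.00, 0.90 and 1.25. The immune receptor genes PGRP-LC and PGRP-LA shared a bin on 3L at 1.47, 1.07, 1.07 and 0.83, and the start of crb, an apical polarity gene, lay in a 3R bin at 1.17, 0.95, 0.84 and 0.99. The bin with part of OdsH, a homeobox gene known for male sterility in hybrids of D. simulans and D. mauritiana, had 1.15, 0.91, 0.82 and 1.21. Coding bases made up 11.95% of the PGRP-LC bin, 21.5% of the crb bin and 11.4% of the OdsH bin. The bins thus included gene-dense stretches and long introns alike.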

How the data were processed

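Newly replicated DNA of 14 libraries was analysed from 1 deposited table. Its values are RPKM that the authors computed for 3 kb windows with a step of 1 kb, a unit worked out from the values, of which 100% in full windows were whole reads within 0.01. Alignment with Bowtie2 2.4.5 to dm6 is recorded per the submitters' processing notes, and the treatment of duplicates and multiple matches is not given in the sources used here. Chromosome lengths were equal to those of the dm6 reference, and genes came from Ensembl release 115. Windows were averaged by start into 10 kb bins of X below 22 Mb, 2L below 22 Mb, 3L below 23 Mb and 3R from 5 Mb. Each library was scaled to a mean of 6, and 0.1 was added before log2. Members and lists were chosen with earlier results of these data known. Regions were named by stretch length, then by their lowest value, 5 in all.

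limma 3.58.1 (R 4.3.3, lmFit and eBayes with a trend, Benjamini-Hochberg at 0.05) tested EM against ML, blocked by replicate, and GSC-like against CySC-like without a block. It was also run on simulated data. The differences planted there were larger than any estimated for the shared early bins, so the simulation does not cover differences of their size. P-values measure the spread between replicates, moderated over all bins, and the independence of the replicates rests on the labels. Other steps used Python 3.11.15, numpy 2.4.6, pandas 2.3.3, scipy 1.17.1, statsmodels 0.14.6 and matplotlib 3.10.9. Alternatives covered bin size, pseudocount, threshold, filter, scaling, GC, thinned reads, voom, blocks and each replicate left out.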

Additional observations from a re-analysis of the deposited data

How the results depend on the processing

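The number of shared early bins depended strongly on its definition. Against 55 bins, 5 kb bins gave 86, 20 kb bins 30, a threshold of 0.6 gave 225, a threshold of 1 gave 6 and the top 20% of each replicate by rank 123. A fit for GC gave 88 and centring within each arm, chosen after seeing the data, also gave 88. Leaving out 1 replicate, which can only add bins, gave 113 to 230, the same bins that were chosen for the held-out shares. Other settings gave 48 to 66 bins, among them reads thinned to the shallowest E or L library, with 62 bins of which 30 were among the 55. The held-out share of GSC-like replicate 1 was 61.2% with 20 kb bins, against 16.9% of all bins in that setting. At a threshold of 1 that of GSC-like replicate 2 was 22.2% (all bins 13.1%) and that of CySC-like replicate 1 16.7% (8.94%). For CySC-like replicate 2 it was 30.9% with 20 kb bins (7.25%), 8.45% at a threshold of 1 (3.35%) and 40.9% with the GC fit (9.66%). Bins chosen in GSC-like recurred in CySC-like at 2.35% with a threshold of 1 (all bins 0.553%) and 14.1% with the GC fit (3.14%). Bins chosen in CySC-like recurred in GSC-like at 30.0% (6.40%) with 20 kb bins, 11.5% (2.71%) at a threshold of 1 and 29.8% (6.61%) with the GC fit. The median log2(EM/ML) of the 55 bins was 0.40 in GSC-like and reversed to -0.084 without GSC-like replicate 2, with a range of -0.084 to 0.80 over the replicates left out. The causes were not tested. Voom called 33 of the 55 bins higher in EM, and limma none under any of its alternatives.

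Replicate numbers were not used to pair GSC-like with CySC-like samples in the main fit. Deviations of same-numbered replicates from the mean of their cell type correlated at -0.20 over 9408 bins, which cannot show how samples were collected. With the replicate block, 0 of the 55 bins differed between cell types, and 12 and 3 of all bins were called earlier and later in GSC-like. With crossed numbers, chosen after seeing the data, these were 0, 312 and 153. Without the replicate block for EM and ML, 0 of the 55 were called, and 5 and 349 of all bins. Depth limits GSC-like replicate 2 most, where L held a median of 50 reads per shared early bin.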
